A study of Mus musculus with 24 samples.

Results

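The genes described here are 7 genes that mark classical monocytes in the mouse: *Ly6c1*, *Ly6c2*, *Vcan*, *F13a1*, *Chil3*, *Fn1*, and *Mgst1*. They were chosen by name as known markers, with earlier results of these data known. They were looked up by symbol in a table of 23930 genes, where 4 of the 7 (*Vcan*, *F13a1*, *Fn1*, and *Mgst1*) had a row. *Ly6c1* and *Ly6c2*, which encode the surface antigens that anti-Ly6C antibodies bind, and *Chil3*, which encodes a secreted chitinase-like protein, had no row under these symbols and were not analysed here. All 4 measured genes passed the filter on low values in every comparison. *Chil4*, a close relative of *Chil3*, had a row and lay between 0 and 0.158 RPM (reads scaled to 1000000 per library), below the 0.206 to 0.244 RPM that 3 reads are worth.

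The libraries were made from cells of untreated mouse spleens, which the labels call macrophages and the study also calls monocytes. Cells of other lineages were first depleted on a magnet, by surface markers that included CD3, NK1.1, Ly6G, and Ter-119. Cells positive for CD11b and negative for NK1.1, Ly6G, and SiglecF were then sorted into a Ly6C hi subset with little FcγRIV and a Ly6C low subset rich in it. Each subset came from 3 genotypes with 4 libraries each, 24 libraries in all: WT C57BL/6 mice, which were bought; Slc29a3-/- mice (KO), which carry an inserted stop codon in *Slc29a3*; and Slc29a3-/- Tlr7-/- mice (DKO), which also carry a small deletion in *Tlr7*. SLC29A3 exports nucleosides from the lysosome, and TLR7 is an endosomal receptor for nucleosides and RNA. Both mutations came from CRISPR injection of zygotes and are present in all cells. The age and the number of mice behind each library are not given in the sources used here, so the P values measure the spread between these libraries.

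Classical monocytes are released from the bone marrow with high surface Ly6C and can become nonclassical Ly6C low monocytes, which patrol vessels and lose much of the earlier program. Versican (*Vcan*) is a large chondroitin sulfate proteoglycan and fibronectin (*Fn1*) an adhesive glycoprotein, both of the extracellular matrix. *F13a1* encodes the A subunit of coagulation factor XIII, a transglutaminase that crosslinks fibrin, and *Mgst1* encodes a membrane-bound glutathione transferase that protects lipids from peroxidation.

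The 4 genes lie on 3 chromosomes of the mouse genome (mm10). *Fn1* occupies chr1:71585520-71653200 on the minus strand and *Mgst1* chr6:138140316-138156755 on the plus strand. *F13a1* (chr13:36867178-37050244) and *Vcan* (chr13:89655312-89742509) both lie on the minus strand of chromosome 13, far apart. All are protein-coding genes. Each was measured through 1 amplicon, whose place within the gene is not given in the sources used here. Levels of different genes therefore cannot be compared, and a value stands for 1 amplicon and not for a transcript.

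The sequences from 250 bases before to 50 bases after the transcription start (RefSeq, GRCm38.p6) are shown for the 3 genes found in the promoter table, because these genes were all higher in the Ly6C hi subset. Capitals mark matches on either strand to letters bound by the myeloid factors PU.1 (GAGGAA) and C/EBP (TTGCNNAA). The NR4A monomer site (AAAGGTCA) was also searched and had no match in these windows.
*F13a1*, chr13:37050195-37050494, minus strand: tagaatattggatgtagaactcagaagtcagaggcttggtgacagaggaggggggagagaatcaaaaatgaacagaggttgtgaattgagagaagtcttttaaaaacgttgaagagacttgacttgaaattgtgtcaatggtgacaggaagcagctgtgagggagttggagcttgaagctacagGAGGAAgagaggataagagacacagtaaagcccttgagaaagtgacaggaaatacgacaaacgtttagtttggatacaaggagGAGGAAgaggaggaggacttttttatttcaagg
*Vcan*, chr13:89742463-89742762, minus strand: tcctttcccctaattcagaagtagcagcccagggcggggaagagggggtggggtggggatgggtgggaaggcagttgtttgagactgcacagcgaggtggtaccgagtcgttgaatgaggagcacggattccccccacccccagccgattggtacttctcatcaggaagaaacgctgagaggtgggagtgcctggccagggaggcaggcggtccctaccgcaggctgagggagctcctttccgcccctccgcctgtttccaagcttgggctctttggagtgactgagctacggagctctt
*Mgst1*, chr6:138140277-138140576, plus strand: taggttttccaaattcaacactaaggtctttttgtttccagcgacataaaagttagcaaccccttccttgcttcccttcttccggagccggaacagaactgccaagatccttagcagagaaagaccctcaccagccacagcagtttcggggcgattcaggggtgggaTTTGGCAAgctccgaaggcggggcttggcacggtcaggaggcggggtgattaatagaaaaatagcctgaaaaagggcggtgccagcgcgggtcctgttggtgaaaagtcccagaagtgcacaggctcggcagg
*F13a1* held 2 matches to the PU.1 letters, *Mgst1* held 1 match to the C/EBP letters, and *Vcan* held neither. CACCC, the core bound by KLF factors, which is not capitalised, had 4 matches in *Vcan*, 2 in *Mgst1*, and 0 in *F13a1*. The table gives *F13a1* and *Mgst1* a second start each, not shown: that window held 1 PU.1 and 2 CACCC matches in *F13a1*, and 1 PU.1 match with no C/EBP or CACCC match in *Mgst1*. Among all 32851 promoters of the table, 28.3% held GAGGAA, 10.8% TTGCNNAA, 57.5% CACCC, and 1.5% AAAGGTCA. A match is a description of the letters only.

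Some libraries stood apart before any comparison. WT replicates 1 to 3 of both subsets carried barcodes 11 to 16, whereas WT replicate 4 and the mutant libraries carried barcodes 24 to 46, so that barcode range and genotype cannot be fully told apart. WT replicates 1 to 3 had 476 to 694 RPM of *Xist* and 0 RPM of the Y-linked *Ddx3y*, and WT replicate 4 had 0 RPM of *Xist*, with 97.0 RPM of *Ddx3y* in Ly6C hi and 197 RPM in Ly6C low cells. *Ddx3y* with little or no *Xist* was also read in replicate 1 of KO and of DKO cells in both subsets and in DKO Ly6C low replicate 3 (81.8 to 164 RPM of *Ddx3y* and at most 0.876 RPM of *Xist*). DKO replicates 2 and 3 of the Ly6C hi subset and DKO replicate 2 of the Ly6C low subset held both genes, with 109 to 425 RPM of *Xist* and 70.2 to 98.9 RPM of *Ddx3y*. The amplicons of *Slc29a3* (40.7 to 413 RPM) and *Tlr7* (111 to 627 RPM) were read in every genotype, so the genotypes rest on the labels. The subsets matched their labels by the 11 nonclassical genes, whose sum was 1033 to 2799 RPM in Ly6C hi and 7794 to 12765 RPM in Ly6C low libraries. Ly6C hi libraries also held neutrophil genes: the sum of an 11-gene list was 14034 to 21813 RPM in WT, 42853 to 82235 RPM in KO, and 6392 to 21875 RPM in DKO libraries, although Ly6G+ cells had been gated out. Because these are bulk samples, fewer cells of a type and less RNA per cell cannot be told apart.

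The first comparison asked how the 4 genes differed between the sorted subsets. *Vcan*, *F13a1*, and *Fn1* were 36.4 to 338 times as abundant on average in Ly6C hi as in Ly6C low cells, depending on gene and genotype, whereas *Mgst1* was 2.11 to 3.21 times as abundant. In each genotype every Ly6C hi library lay above every Ly6C low library for all 4 genes. Here and between genotypes below, the share of all genes whose groups did not overlap was not counted. Values were compared on the log2(RPM + 1) scale with limma, and a gene was called at a Benjamini-Hochberg adjusted P under 0.05 and a fold change over 1.5.

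*Vcan* was the most variable gene within Ly6C hi cells. Its values in WT replicates 1 to 4 were 107, 108, 111, and 508 RPM. In KO replicates 1 to 4 they were 189, 170.3, 81.8, and 119 RPM. In DKO replicates 1 to 4 they were 86.7, 471, 288, and 103 RPM. WT replicate 4 and DKO replicates 2 and 3 were thus high, and the 3 genotypes overlapped. Ly6C low cells of WT mice held 0.909, 2.88, 1.61, and 2.30 RPM. The KO libraries of this subset had 1.19, 0.800, 0.946, and 1.67 RPM, and the DKO libraries had 2.42, 0.635, 0.395, and 0 RPM. All Ly6C low values were at most 2.88 RPM, and the value of 0 in DKO replicate 4 allows up to 0.240 RPM.

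*Fn1* was at 1532, 1571, 1622, and 2201 RPM in WT Ly6C hi replicates 1 to 4, with replicate 4 well above the other 3. KO Ly6C hi libraries had 1164, 1083, 1267, and 774 RPM. DKO Ly6C hi libraries had 1258, 3167, 2237, and 1718 RPM. All KO libraries lay below all WT libraries, and DKO replicate 1 lay within the KO range. Among Ly6C low libraries, WT had 59.5, 55.6, 53.7, and 21.7 RPM. KO had 24.6, 21.0, 17.6, and 29.9 RPM, and DKO had 9.85, 9.05, 23.4, and 15.4 RPM. WT replicates 1 to 3 were above all mutant libraries here, and WT replicate 4 was within their range.

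*F13a1* was read at 1405, 1476, 1441, and 3323 RPM in WT Ly6C hi replicates 1 to 4. The KO libraries had 1644, 1312, 1176, and 969 RPM. The DKO libraries had 1570, 2329, 2650, and 1918 RPM. WT replicate 4 was the highest of the 12, and KO replicate 1 lay above the lowest DKO library. In Ly6C low cells, WT replicates 1 to 4 held 14.5, 46.9, 18.6, and 15.2 RPM, the KO libraries 4.69, 6.80, 3.71, and 20.6 RPM, and the DKO libraries 11.1, 1.11, 5.21, and 7.67 RPM. Every DKO value was below every WT value, and KO replicate 4 fell within the WT range.

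*Mgst1* was the steadiest gene. Ly6C hi libraries had 328, 312, 293, and 382 RPM in WT, 297, 259, 235, and 308 RPM in KO, and 228, 226, 300.1, and 278 RPM in DKO cells. Ly6C low libraries had 102, 101, 103, and 103 RPM in WT, 132, 99.9, 142, and 147 RPM in KO, and 95, 118, 106, and 63.1 RPM in DKO cells. The genotypes overlapped in both subsets. Its coefficient of variation within a group ran from 0.8 to 24.6%, against 33 to 124.2% for *Vcan*.

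**Figure D1:**
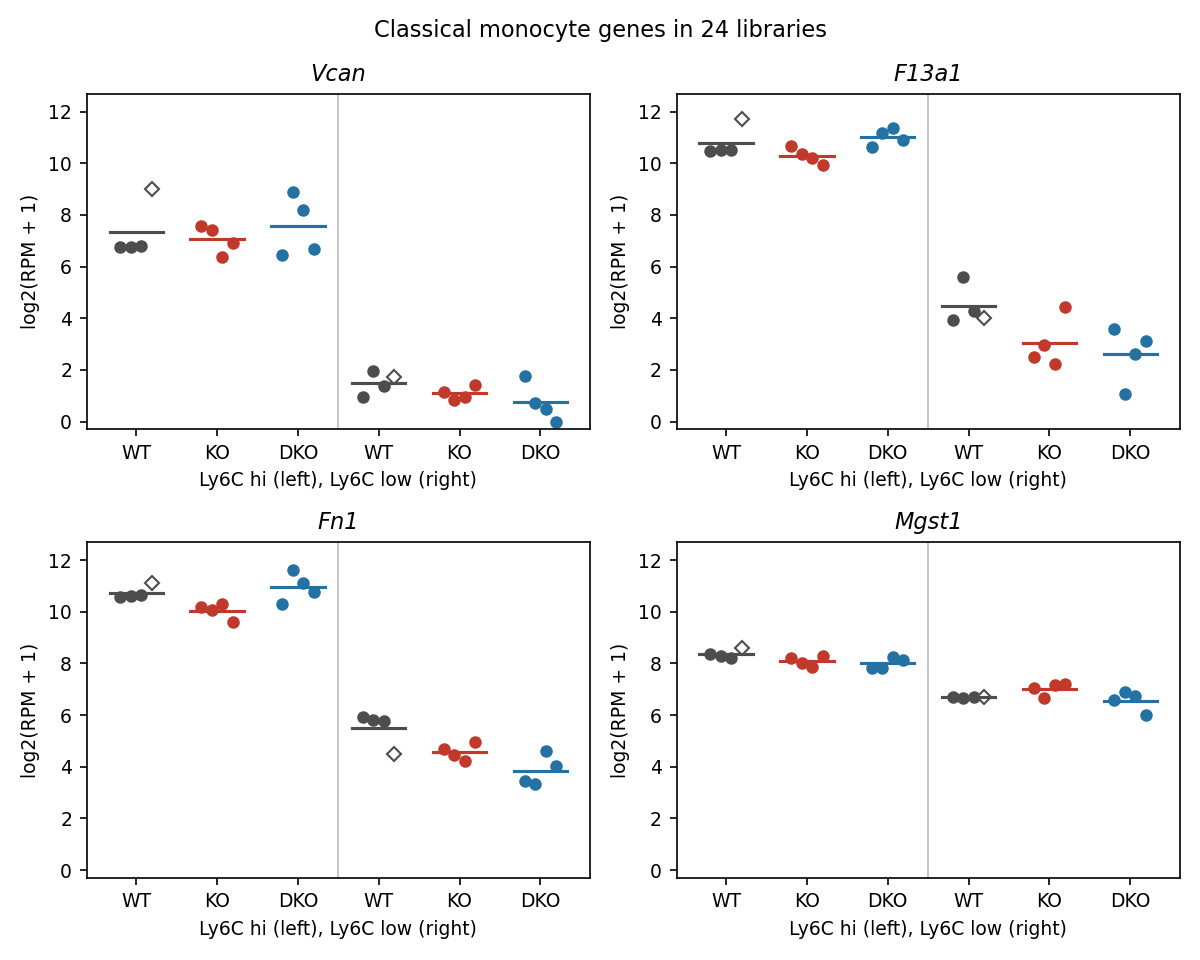
log2(RPM + 1) of the 4 measured genes in 24 libraries, by genotype (WT, grey; KO, Slc29a3-/-, red; DKO, Slc29a3-/- Tlr7-/-, blue) and subset. Points are libraries in replicate order, the open diamond is WT replicate 4, and lines are group means. Ly6C hi libraries lie above Ly6C low libraries for every gene, with the smallest gap for *Mgst1*.

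All 4 genes were called higher in Ly6C hi cells in each genotype. Over all 11042 genes tested, 25.9% were called in either direction in WT, 35% in KO, and 28.3% in DKO cells. *F13a1* differed by 6.33 (SE 0.46) on the log2 scale in WT, 7.26 in KO, and 8.42 in DKO cells (adjusted P = 2.0e-10, 4.2e-12, and 1.1e-12 in limma). For *Vcan* the log2 differences were 5.83, 5.98, and 6.81 (SE 0.50 each; adjusted P = 2.3e-09, 4.6e-10, and 1.1e-10 in limma), and those of *Fn1* were 5.24, 5.47, and 7.10 (SE 0.30 each; adjusted P = 4.6e-12, 4.2e-13, and 2.4e-14 in limma). *Mgst1* had log2 differences of 1.67, 1.08, and 1.45 (SE 0.16 each; adjusted P = 2.3e-08, 7.4e-06, and 1.4e-07 in limma). The 95% interval of *Mgst1* in WT cells, 1.33 to 2.01, lay wholly below that of the other genes, the lowest of which began at 4.61. The pseudocount of 1 understates the differences of *Vcan*, whose Ly6C low values are near 1 RPM.

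Seen from the other side, Ly6C low WT cells kept 0.924% of the mean Ly6C hi level of *Vcan*, 1.25% of that of *F13a1*, and 2.75% of that of *Fn1*, but 31.1% of that of *Mgst1*. In DKO cells these shares were 0.364, 0.296, 0.689, and 37%. Values relative to *Mgst1* in the same library, on the log2(RPM + 1) scale, give the differences above minus that of *Mgst1*. The added 1 keeps the library total from cancelling fully, most for *Vcan* in Ly6C low cells. Relative to *Mgst1*, *F13a1* was higher in Ly6C hi than in Ly6C low cells by 4.67 log2 units in WT, 6.18 in KO, and 6.96 in DKO mice. The corresponding differences were 3.57, 4.39, and 5.65 for *Fn1* and 4.16, 4.90, and 5.36 for *Vcan*. The difference between the subsets was thus not shared equally by the 4 genes.

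**Figure D2:**
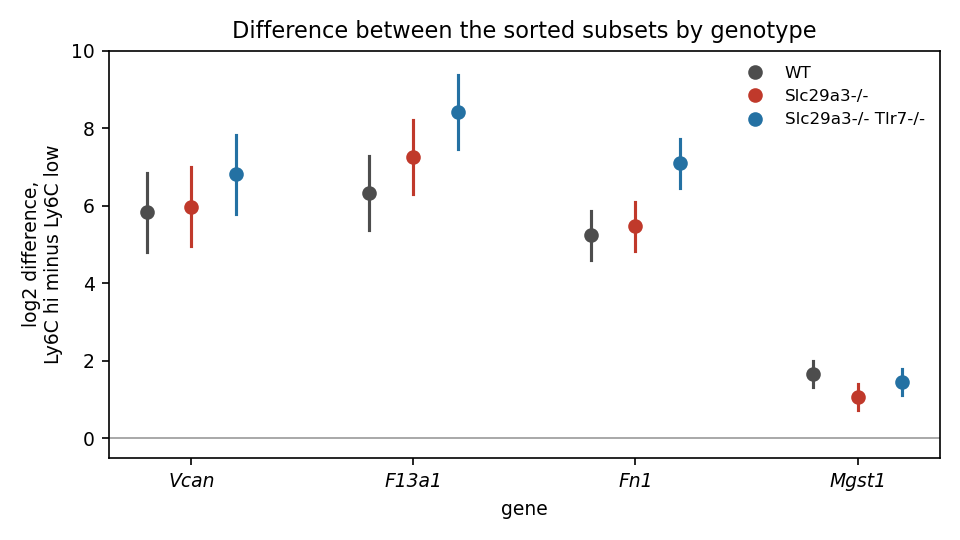
Difference between Ly6C hi and Ly6C low cells of each genotype (log2 scale, limma, n = 4 libraries a group) for the 4 genes, with 95% intervals as bars. The intervals of *Mgst1* lie between 0.74 and 2.01, and those of the other 3 genes begin at 4.61 or higher.

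Other genes of the classical monocyte program were read from a list of 12, all of them tested. This list was also chosen with earlier results of these data known. In WT cells 8 of the 12 were called higher in the Ly6C hi subset, in KO cells 10, and in DKO cells 11, with 0 called lower in each genotype. Their median log2 difference was 1.43, 1.27, and 1.90, against 0.07, -0.10, and 0.12 over all genes tested. The 4 genes above had medians of 5.53, 5.72, and 6.95. *Ccr2*, the chemokine receptor used to leave the bone marrow, was 9.50 times as abundant in Ly6C hi as in Ly6C low cells of WT mice and 16.6 times in DKO mice, with a wide spread (726 ± 705 RPM in WT Ly6C hi libraries, SD, n = 4). In contrast, 10 of the 11 nonclassical genes were called lower in Ly6C hi cells of each genotype. Among those called was *Fcgr4*, which encodes the sorting marker FcγRIV, so its call followed from the sort.

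**Figure D3:**
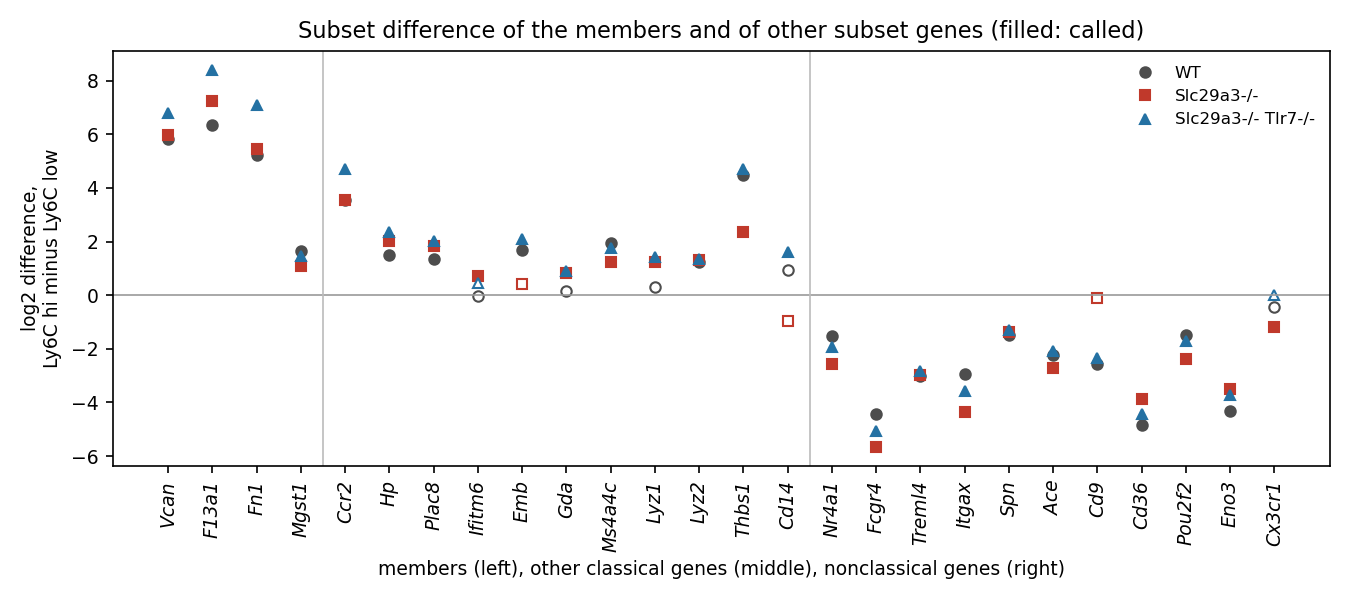
Ly6C hi minus Ly6C low difference (log2 scale, limma) of the 4 genes, of 11 other classical genes, and of 11 nonclassical genes, with WT as circles, KO as squares, and DKO as triangles. Filled symbols were called. *F13a1*, *Vcan*, and *Fn1* lie between 5.24 and 8.42, and nonclassical genes lie mostly below 0.

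The second set of comparisons asked whether the genes differed between genotypes within the Ly6C hi subset. Of the 4 genes, *Fn1* alone was called between KO and WT cells, where 22.4% of the 10561 genes tested were called. *Fn1* averaged 1732 ± 315 RPM in WT and 1072 ± 212 RPM in KO cells (SD, n = 4 each), a log2 difference of -0.70 (SE 0.25, 95% interval -1.22 to -0.17, adjusted P = 0.0463 in limma), or 1.62-fold lower. The call was close to the threshold: it was lost when any 1 of the 8 WT and KO libraries was left out (log2 difference -0.79 to -0.55), and after TMM scaling (-0.56, adjusted P = 0.0938 in limma), with the direction kept in all 18 alternatives, of which 16 lost the call. The median of all genes in this comparison was -0.14, and TMM brought it to -0.01. *F13a1* (log2 difference -0.50, 95% interval -1.07 to 0.07, adjusted P = 0.175), *Vcan* (-0.26, -1.44 to 0.92, 0.757), and *Mgst1* (-0.26, -0.56 to 0.03, 0.175) were not called by limma.

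The neutrophil sum was higher in every KO library than in every WT library, as given above, although its genes did not move together: 6 of the 11 were called higher in KO cells, 2 (*Retnlg* and *Mmp8*) were called lower, and 3 were not called. The sum was 42853, 49281, 48802, and 82235 RPM in KO replicates 1 to 4, beside 1164, 1083, 1267, and 774 RPM of *Fn1*. The sum of 7 primary granule and progenitor genes was 352 to 456 RPM in WT and 868 to 2901 RPM in KO libraries. With these 2 lists taken out of the library total, the log2 difference of *Fn1* was -0.64 (adjusted P = 0.0606 in limma). This step changed only the total used for scaling and cannot show the part of such cells in the *Fn1* result, which was not tested. Genes of several other cell types were lower in KO cells, with 3 of 3 called lower on each of 4 lists, where 22.4% of all genes were called. By contrast, *Siglecf* was called higher and *Prg2* lower on the eosinophil list, and 0 of the 4 platelet genes tested were called. WT replicate 4 had the lowest WT sum on each of those 4 lists, and WT replicates 1 to 3 had 74.9 to 82.3 RPM for T cells. In WT and KO libraries, respectively, the sums were 11.9 to 82.3 and 1.59 to 6.96 RPM for T cells, 480.1 to 642 and 64.9 to 230.2 RPM for plasma cells, 179 to 265 and 75.1 to 155 RPM for plasmacytoid dendritic cells, and 32 to 60.7 and 5.22 to 7.32 RPM for conventional dendritic cells. Their part in the *Fn1* result was not tested. Genes of fibroblasts, which also secrete fibronectin, summed to at most 0.800 RPM in any library, and 0 of the 4 on the list reached 1 RPM. The 5 genes of platelets, which also carry factor XIII, summed to between 8.35 and 56.0 RPM over all libraries.

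**Figure D4:**
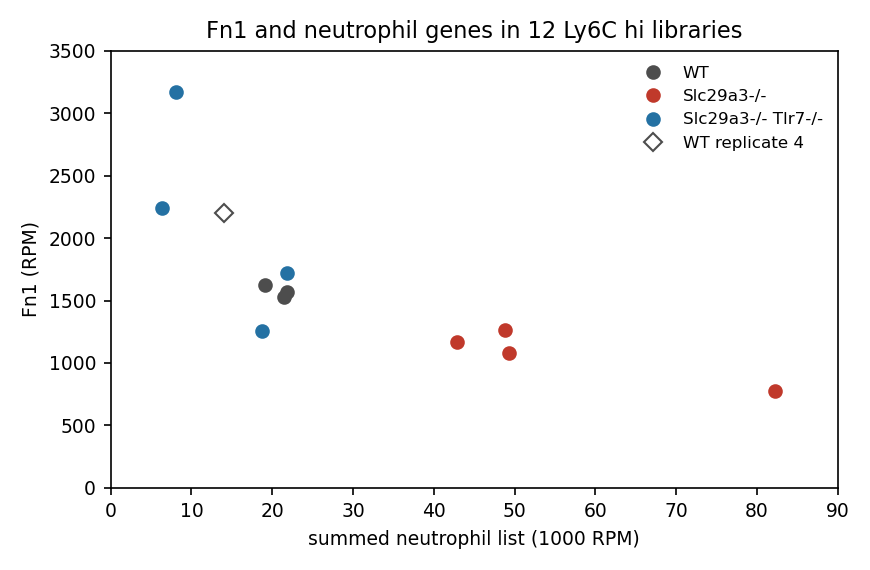
*Fn1* (RPM) against the summed RPM of 11 neutrophil genes in the 12 Ly6C hi libraries, by genotype, with WT replicate 4 as an open diamond. The 4 KO libraries have the highest neutrophil sums and lie at or below 1267 RPM of *Fn1*, and the 2 DKO libraries with the lowest sums have the highest *Fn1*.

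Between DKO and WT Ly6C hi cells 0 of the 4 genes were called by limma, with 1.42% of all genes called. At an unadjusted P under 0.05, 1 of the 4 passed, *Mgst1*, with a log2 difference of -0.35 (95% interval -0.65 to -0.06, adjusted P = 0.15 in limma). Here and in the comparisons below, the share of all genes passing at an unadjusted P was not counted. For *Fn1* the difference was 0.21 (-0.32 to 0.73), for *F13a1* 0.23 (-0.34 to 0.79), and for *Vcan* 0.22 (-0.96 to 1.40), the widest interval of the 4. These 3 signs were not stable. Against WT replicate 4 alone they were -0.15, -0.68, and -1.44 (adjusted P = 0.999 each in limma), and without DKO replicate 2 those of *Fn1* and *Vcan* were -0.02 and -0.22. That of *F13a1* stayed between 0.11 and 0.53 with any 1 library left out.

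In the direct comparison, *Fn1* was called lower in KO than in DKO Ly6C hi cells (1072 ± 212 and 2095 ± 819 RPM, SD, n = 4 each; log2 difference -0.91, SE 0.25, 95% interval -1.43 to -0.38, adjusted P = 0.018 in limma), the only call among the 4 genes, where 17.2% of all genes were called. The KO and DKO values overlapped through DKO replicate 1. Without KO replicate 4 the difference was -0.76 (adjusted P = 0.0662 in limma). *F13a1* was at 1275 ± 284 RPM in KO and 2117 ± 472 RPM in DKO cells (log2 difference -0.73, 95% interval -1.30 to -0.16, adjusted P = 0.0657 in limma). It was called in 2 of 16 alternatives: without DKO replicate 1 (-0.86, adjusted P = 0.0438 in limma) and with only the 2 groups fitted (-0.73, adjusted P = 0.0352 in limma). With another library left out its adjusted P reached 0.188 in limma. *Vcan* (-0.48, -1.66 to 0.69) and *Mgst1* (0.09, -0.20 to 0.39) were not called.

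Within the Ly6C low subset, 0 of the 4 genes were called between KO and WT cells, where 4.43% of 10317 genes were called. At an unadjusted P under 0.05, 2 of the 4 passed: *F13a1* (log2 difference -1.43, 95% interval -2.63 to -0.23, adjusted P = 0.167 in limma) and *Fn1* (-0.93, -1.65 to -0.21, adjusted P = 0.132 in limma). WT replicate 4 decided *Fn1*: without it the difference was -1.26 (adjusted P = 0.0111 in limma), and against it alone 0.07. The *Vcan* difference was -0.41 (-1.15 to 0.33), and that of *Mgst1* was 0.33 (-0.07 to 0.73).

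DKO Ly6C low cells had less *Fn1* than WT cells (14.4 ± 6.63 and 47.6 ± 17.5 RPM, SD, n = 4 each; log2 difference -1.65, SE 0.34, 95% interval -2.37 to -0.93, adjusted P = 0.0155 in limma), 3.14-fold lower. It was the only call among the 4 genes, with 8.31% of all genes called. The adjusted P rose to 0.0545, 0.0611, and 0.0616 without WT replicate 1, 2, or 3, and against WT replicate 4 alone the difference was -0.65 (adjusted P = 0.544 in limma). *F13a1* averaged 23.8 ± 15.5 RPM in WT and 6.26 ± 4.19 RPM in DKO cells (log2 difference -1.86, 95% interval -3.06 to -0.66, adjusted P = 0.0524 in limma). The *Vcan* difference was -0.76 (-1.50 to -0.02, adjusted P = 0.161) and that of *Mgst1* -0.14 (-0.54 to 0.26, adjusted P = 0.652). Genes of other cells were also lower in DKO libraries, mainly against WT replicates 1 to 3. The neutrophil sum was 695 to 1428 RPM in WT replicates 1 to 3, 218 RPM in WT replicate 4, and 154 to 208 RPM in DKO. Most of it in WT replicate 4 (177 RPM) and in DKO libraries (146 to 175 RPM) was *Csf3r*, which was not called. The other 7 of the 8 neutrophil genes tested were called lower. Their part in the *Fn1* result was not tested.

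Between KO and DKO Ly6C low cells 0 of the 4 genes were called (1.93% of all genes), and 1 of the 4, *Mgst1*, had an unadjusted P under 0.05 (log2 difference 0.47, 95% interval 0.07 to 0.87, adjusted P = 0.205 in limma). *Fn1* differed by 0.72 (-0.00 to 1.44, adjusted P = 0.255 in limma).

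**Figure D5:**
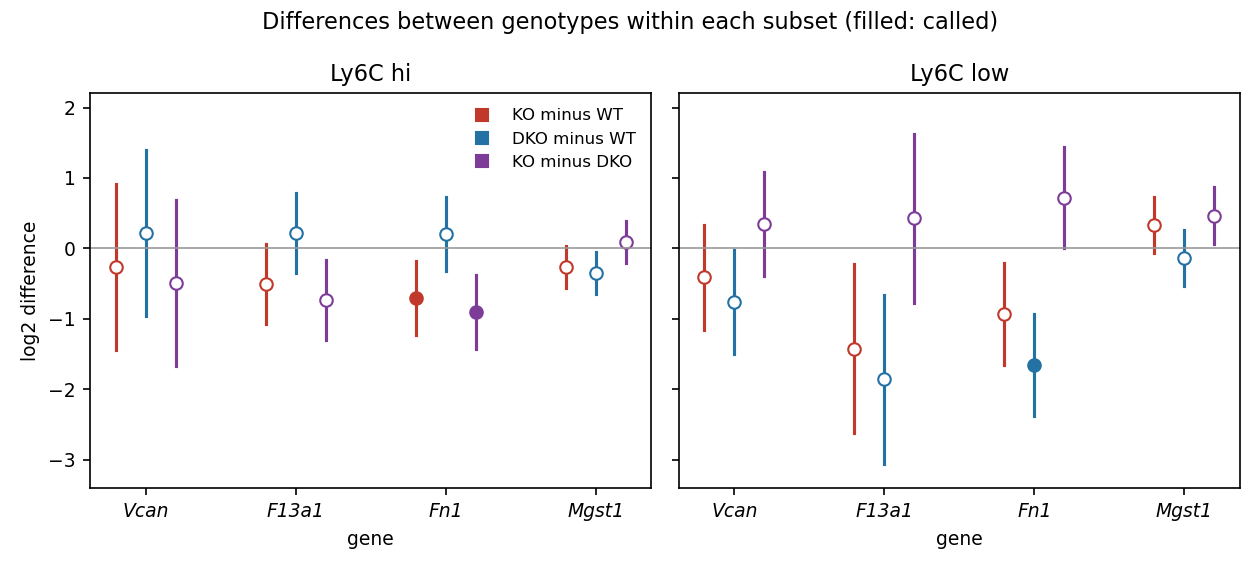
Differences between genotypes (log2 scale, limma) for the 4 genes in Ly6C hi and Ly6C low cells, with 95% intervals. Filled points were called, and all 3 are *Fn1*: -0.70 (KO minus WT) and -0.91 (KO minus DKO) in Ly6C hi, and -1.65 (DKO minus WT) in Ly6C low cells. The comparisons of a subset share libraries.

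The effects in the 2 subsets were compared as interactions over all 24 libraries. The KO minus DKO difference of *Fn1* was -0.91 in Ly6C hi and 0.72 in Ly6C low cells, and the interaction was -1.63 (SE 0.43, 95% interval -2.52 to -0.74, adjusted P = 0.0193 in limma). It was the only interaction called among the 4 genes in this comparison, where 8.94% of 11042 genes were called, and it was not called after RLE scaling (-1.42, adjusted P = 0.0539), without the filter on low values (adjusted P = 0.0515), or without KO Ly6C hi replicate 4 (-1.48, adjusted P = 0.0558). For KO minus WT, 0 of the 4 genes had a called interaction (8.76% of all genes), and 1 of the 4, *Mgst1*, had an unadjusted P under 0.05 (-0.59, adjusted P = 0.119 in limma). For DKO minus WT, 0 of the 4 were called (0.0634% of all genes), and 2 of the 4 passed at an unadjusted P under 0.05: *F13a1* (2.08, adjusted P = 0.288 in limma) and *Fn1* (1.86, adjusted P = 0.109 in limma). The latter was called in 2 of 24 alternatives: without WT Ly6C low replicate 4 (2.19, adjusted P = 0.00444 in limma) and without DKO Ly6C hi replicate 1 (2.08, adjusted P = 0.039 in limma). In the other 22 it was not called, and over all 24 it ranged from 0.495 to 2.19.

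Of the 12 other classical genes, those called between genotypes differed from comparison to comparison. In KO against WT Ly6C hi cells, *Hp*, which encodes the hemoglobin-binding protein haptoglobin, also a protein of neutrophil granules, rose from 474 ± 54.0 to 973 ± 126 RPM (SD, n = 4 each; log2 difference 1.03, adjusted P = 7.9e-04 in limma). In the same comparison, where 22.4% of all genes were called, 3 of the 12 fell: *Thbs1* (thrombospondin 1; log2 difference -4.24), *Cd14* (the lipopolysaccharide coreceptor; -2.60), and *Lyz1* (lysozyme; -0.62), whose reads may be shared with the near-identical *Lyz2*. *Thbs1* was at 763 to 863 RPM in WT replicates 1 to 3, at 116 RPM in WT replicate 4, and at 17.4 to 41.8 RPM in KO libraries, and *Cd14* was likewise higher in WT replicates 1 to 3 (227 to 245 RPM) than in WT replicate 4 (48.8 RPM). *Ccr2* was not called (-0.52, adjusted P = 0.559 in limma). In DKO against WT Ly6C hi cells 0 of the 12 were called (1.42% of all genes). KO against DKO Ly6C hi cells gave 3 lower (*Lyz1*, *Ms4a4c*, and *Thbs1*) and 0 higher (17.2% of all genes). In Ly6C low cells, *Lyz1* fell in KO against WT (4.43% of all genes called), *Cd14* fell (-2.01) and *Lyz2* rose (0.69) in DKO against WT (8.31%), and 0 of the 12 were called between KO and DKO (1.93%). The fall of *Cd14* was from WT replicates 1 to 3, at 95.3 to 147 RPM. WT replicate 4, at 28.5 RPM, lay within the DKO range of 13.1 to 36.8 RPM. *Cd14* also had a called interaction for KO minus DKO (-2.55, with 8.94% of all genes called).

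The genes whose profile over all 24 libraries was most like each member were found among 7492 genes with a mean of at least 10 RPM, by Pearson's r of log2(RPM + 1). For *Fn1* these were *Gas7* (0.989), *Capg* (0.989), and *F13a1* (0.986), and for *F13a1* they were *Capg* (0.989), *Fn1* (0.986), and *Gas7* (0.983). *Vcan* was most like *Gas7* (0.979), *F13a1* (0.977), and *Mmp19* (0.974). The nearest genes to *Mgst1* were different: *C1rl* (0.966), *Cib2* (0.958), and *Iqgap2* (0.957). These values describe mainly the step between the subsets, which all of these genes share, and the libraries also share their totals. *Gas7* averaged 89.2, 77.8, and 129 RPM in WT, KO, and DKO Ly6C hi cells and 2.04, 1.88, and 0.996 RPM in the corresponding Ly6C low cells, and *Capg* averaged 177, 145, and 203 RPM and 8.32, 2.96, and 3.29 RPM.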

How the data were processed

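RNA from sorted spleen cells was made into Ion AmpliSeq libraries. Per the labels, counting used the AmpliSeqRNA plug-in, and the methods name Cutadapt, STAR (mm10), HTSeq, and DESeq2. Which step wrote the table is not stated. The authors deposited RPM values, without counts. The 0.0001 written for 0 reads was set to 0, and 27 symbols turned into dates were repaired. Depth, inferred from the even step between low values, was 12311037 to 14572266 reads per library. Limits from counts cover counting error only.

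A gene entered a fit if 4 or more of its libraries reached 1 RPM. The 3 genotypes of a subset (12 libraries), or all 24 libraries for subset differences and interactions, were fitted with limma 3.58.1 (R 4.3.3, intensity trend) on log2(RPM + 1). Called genes had an adjusted P under 0.05 (Benjamini-Hochberg over all genes) and a fold over 1.5. The script was tested on simulated data. Other steps used pandas 2.3.3, numpy 2.4.6, and matplotlib 3.10.9 in Python 3.11.15. Positions are from GENCODE vM21.

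Members, gene lists, and the genes named (all members, called list genes with *Ccr2*, and the 3 genes most like each member) were chosen with earlier results of these data known. Of the classical list, 1 gene is counted but not reported singly here. *Xist*, *Ddx3y*, and the neutrophil genes named were added after values were seen. Replicate numbers were checked as pairs: between WT subsets same-numbered libraries deviated together (r of 0.26 to 0.62), and in no other comparison did all 4 pairs exceed 0.1. Only 2 of the 4 Ly6C hi WT libraries correlated best with the Ly6C low library of their own number, as in KO and DKO cells. Because WT replicate 4 stood apart from replicates 1 to 3 in both subsets, such correlations can arise without pairs, and this check cannot show pairing. Pairs among WT replicates 1 to 3 had a median squared difference per gene of 1.86 to 6.51 in units of the counting variance, and other pairs of a group 2.66 to 41.1. In Ly6C hi cells the WT replicates 1 to 3 had 1.86 to 2.12 among themselves and 10.05 to 10.92 with WT replicate 4. In Ly6C low cells these values were 2.89 to 6.51 and 21.22 to 27.16. All lay above counting error, and each library was counted once. Separate libraries from 1 mouse could also exceed counting error, so this check cannot tell whether WT replicates 1 to 3 were separate mice. Alternatives were TMM and RLE scaling, no filter, a pseudocount of 0.1, other sets of libraries in the fit, a replicate block, leaving out each library, and WT replicate 4 alone. Added after seeing the data were WT replicates 1 to 3 averaged and a library total without neutrophil and progenitor genes.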

Additional observations from a re-analysis of the deposited data

Results flagged for a closer look

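In 5 of the 24 groups of 4 libraries checked (4 genes in 6 groups), 1 library lay far from the other 3 by Dixon's criterion, which chance meets in about 1 in 20 independent groups of normally distributed values. The groups checked here share libraries and hold RPM values, so their number cannot be set against that rate. In WT Ly6C hi cells this was replicate 4 each time, with 508 RPM of *Vcan*, 3323 RPM of *F13a1*, and 2201 RPM of *Fn1*, which is 4.67, 2.31, and 1.40 times the mean of WT replicates 1 to 3. In WT Ly6C low cells, replicate 2 had 46.9 RPM of *F13a1*, together with the highest neutrophil sum of that subset (1428 RPM), and replicate 4 had 21.7 RPM of *Fn1*, 0.385 times the mean of replicates 1 to 3. The KO minus DKO difference of *Fn1* was in opposite directions in the 2 subsets, with an interaction of -1.63 on the log2 scale (adjusted P = 0.0193 in limma).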

How the results depend on the processing

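Between the subsets, all 4 genes were called in every genotype under every alternative run. Calls between genotypes were less stable. For KO minus WT in Ly6C hi cells, 0 of the 4 genes were called under TMM or RLE scaling, no filter, a fit of all 24 libraries, WT replicate 4 alone, WT replicates 1 to 3 averaged, the total without neutrophil and progenitor genes, and each library left out (0 to 0). With a replicate block 0 were called (*Fn1* -0.70, adjusted P = 0.0575 in limma), and the block changed no other call. For KO minus DKO in Ly6C hi cells the count was 0 without a filter, 2 with only the 2 groups, and 0 to 2 with a library left out. For DKO minus WT in Ly6C low cells it was 0 with only the 2 groups, 2 with all 24 libraries, 0 against WT replicate 4 alone or with WT replicates 1 to 3 averaged, and 0 to 3 with a library left out. For KO minus WT in Ly6C low cells it was 0 to 1 with a library left out. The interaction count for KO minus DKO was 0 under RLE scaling or no filter and 0 to 1 with a library left out, and that for DKO minus WT was 0 to 1. The cause was not tested.

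Signs turned only in differences that were not called. In DKO minus WT Ly6C hi cells, *Vcan*, *F13a1*, and *Fn1* were at -1.44, -0.68, and -0.15 against WT replicate 4 alone, and *Vcan* and *F13a1* at -0.33 and -0.076 with WT replicates 1 to 3 averaged. Against WT replicate 4 alone, *Fn1* was at 0.073 in KO minus WT Ly6C low cells, the KO minus WT interactions of *Vcan*, *F13a1*, and *Fn1* were -1.29, -0.43, and -1.13, and the DKO minus WT interaction of *Vcan* was -0.46. With WT replicates 1 to 3 averaged, the KO minus WT interactions of *Vcan* and *Fn1* were -0.33 and -0.22. With a library left out, *Vcan* ranged from -0.46 to 0.29 in KO minus WT and from -0.22 to 0.78 in DKO minus WT Ly6C hi cells, *Fn1* from -0.018 to 0.43 in DKO minus WT Ly6C hi cells, *Mgst1* from -0.25 to 0.048 in DKO minus WT Ly6C low cells, *F13a1* from -0.08 to 0.76 in KO minus DKO Ly6C low cells, and the KO minus WT interaction of *Vcan* from -0.044 to 0.70.

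Scaling changed the split of all called genes in KO minus WT Ly6C hi cells from 861 higher and 1507 lower to 1185 and 1139 with TMM. Counts of all called genes in comparisons with WT fell most against WT replicate 4 alone, to 129 higher and 27 lower in KO minus WT Ly6C hi cells. Where 1 WT library is left, it is assumed to vary like the remaining groups. Depth limits mainly *Vcan* in Ly6C low cells, at 0 to 2.88 RPM. The planned edgeR alternative was not run: the table holds RPM, and reads inferred from its steps were not tested as counts.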
